A study of Mus musculus with 4 samples.

Results

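Marker genes of the extraembryonic lineages were examined in mouse embryonic stem cells (ESCs) sorted into 4 populations, with 1 library for each. The genes were chosen by symbol: Tead4, Tfap2c, Cdx2, Eomes, Krt8 and Krt18 for the trophectoderm, and Gata4, Gata6 and Sox17 for the primitive endoderm. Of these 9 genes, 7 had a row among the 24190 gene symbols of the deposited tables, 5 of the 6 trophectoderm genes and 2 of the 3 primitive endoderm genes. Cdx2 and Gata6 were not analysed here. The populations were the GFP-positive and GFP-negative cells of a GFP-Zscan4c line, called the fusion line here, and those of a GFP line, called the GFP-only line. Both lines are clonal derivatives of ES-E14TG2a (E14), an established male mouse ESC line, and both carry an integrated Zscan4c promoter reporter. The promoter drives a fusion of GFP to Zscan4c in the fusion line and GFP in the GFP-only line, so each line stands for 1 clone and the sort gates on Zscan4c promoter activity. All cells were cultured in serum-free N2B27 medium with the MEK inhibitor PD0325901 and the GSK3β inhibitor CHIR99021, which were thus present in every group. The labels call the sorted GFP-positive cells 2C-like, after the 2-cell embryo, and the GFP-negative cells pluripotent.

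The trophectoderm is the outer epithelium of the blastocyst and founds the placenta, and the primitive endoderm forms on the surface of the inner cell mass and founds the yolk sac. In the mouse, TEAD4 acts with the coactivators YAP and TAZ, which the Hippo kinases keep out of the nucleus of inner cells, to switch on the trophectoderm factor CDX2. TFAP2C and EOMES act beside CDX2 in trophoblast stem cells, and KRT8 and KRT18 pair into the intermediate filaments of the first epithelium. GATA6, GATA4 and SOX17 specify primitive endoderm downstream of FGF4 and ERK signalling, which a MEK inhibitor blocks. ESCs descend from the inner cell mass and normally keep both programs low, whereas the blastomeres of the 2-cell embryo can still give rise to extraembryonic tissue.

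Levels are in TPM, a share of all transcripts corrected for transcript length. TPM keep no read counts, the depth behind them is unknown, and counting errors cannot be given. A gene with an exact 0 is called listed at 0. Among genes that averaged 5 to 20 TPM over the remaining libraries, 0.275% were at 0 in GFP-positive and 1.68% in GFP-negative cells of the fusion line, against 0.455% in GFP-positive and 35.8% in GFP-negative cells of the GFP-only line. The GFP-negative library of the GFP-only line therefore stood apart from the rest. For lineage genes at 5 TPM or more whose ratio rests on it, the ratio against the other GFP-negative library is also given. All 12 pluripotency markers were above 0 in every library and summed to 5860 and 3550 TPM in GFP-positive and GFP-negative cells of the fusion line and to 5720 and 7450 TPM in those of the GFP-only line. Dppa5a, at 2280 TPM in GFP-positive and 41.4 TPM in GFP-negative cells, made up nearly all of the difference in the fusion line. The 14 markers of 2C-like cells with a row summed to 2270 and 11.5 TPM in the same order for the fusion line and to 1200 and 12.2 TPM for the GFP-only line. They include Zscan4 genes and the sort gated on the Zscan4c promoter, so this difference is no independent check of the sort. The fusion itself carries Zscan4c, and its part in the larger sum of the fusion line was not tested. In sorted bulk samples, fewer cells that transcribe a gene and less RNA per cell cannot be told apart.

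**Figure D1:**
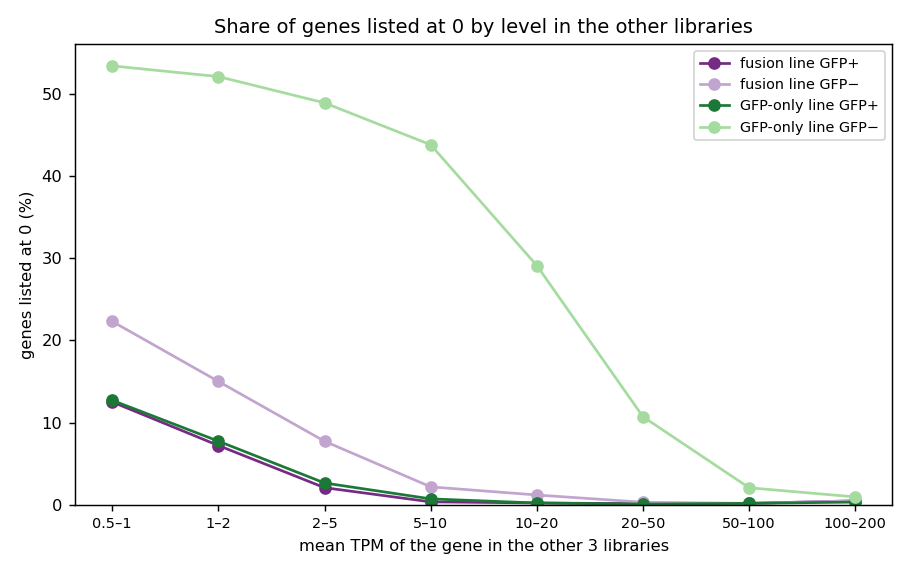
Share of genes listed at 0 (%, vertical axis) in each library, by the mean TPM of the gene in the other 3 libraries (horizontal axis, binned). At a mean of 5 to 10 TPM the GFP-negative library of the GFP-only line lists 43.8% of genes at 0, against 0.344% to 2.17% in the other libraries.

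The lineage genes were not arranged alike over the libraries. Tead4 and Tfap2c were lower in the GFP-positive than in the GFP-negative cells of both lines, and they had the highest levels of the 7 in every library except GFP-positive cells of the GFP-only line, where Krt8 lay above Tead4. Eomes and Gata4 were detected at low levels in the GFP-positive cells of both lines and stood at 0 in each GFP-negative library. Krt8 and Krt18 were more than 2-fold higher in the GFP-positive cells of the GFP-only line and not in those of the fusion line, a difference between the lines that was not tested. Sox17 was under 1 TPM in every library and higher in the GFP-positive cells of both lines. The plot of TPM by library shows these patterns side by side.

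**Figure D2:**
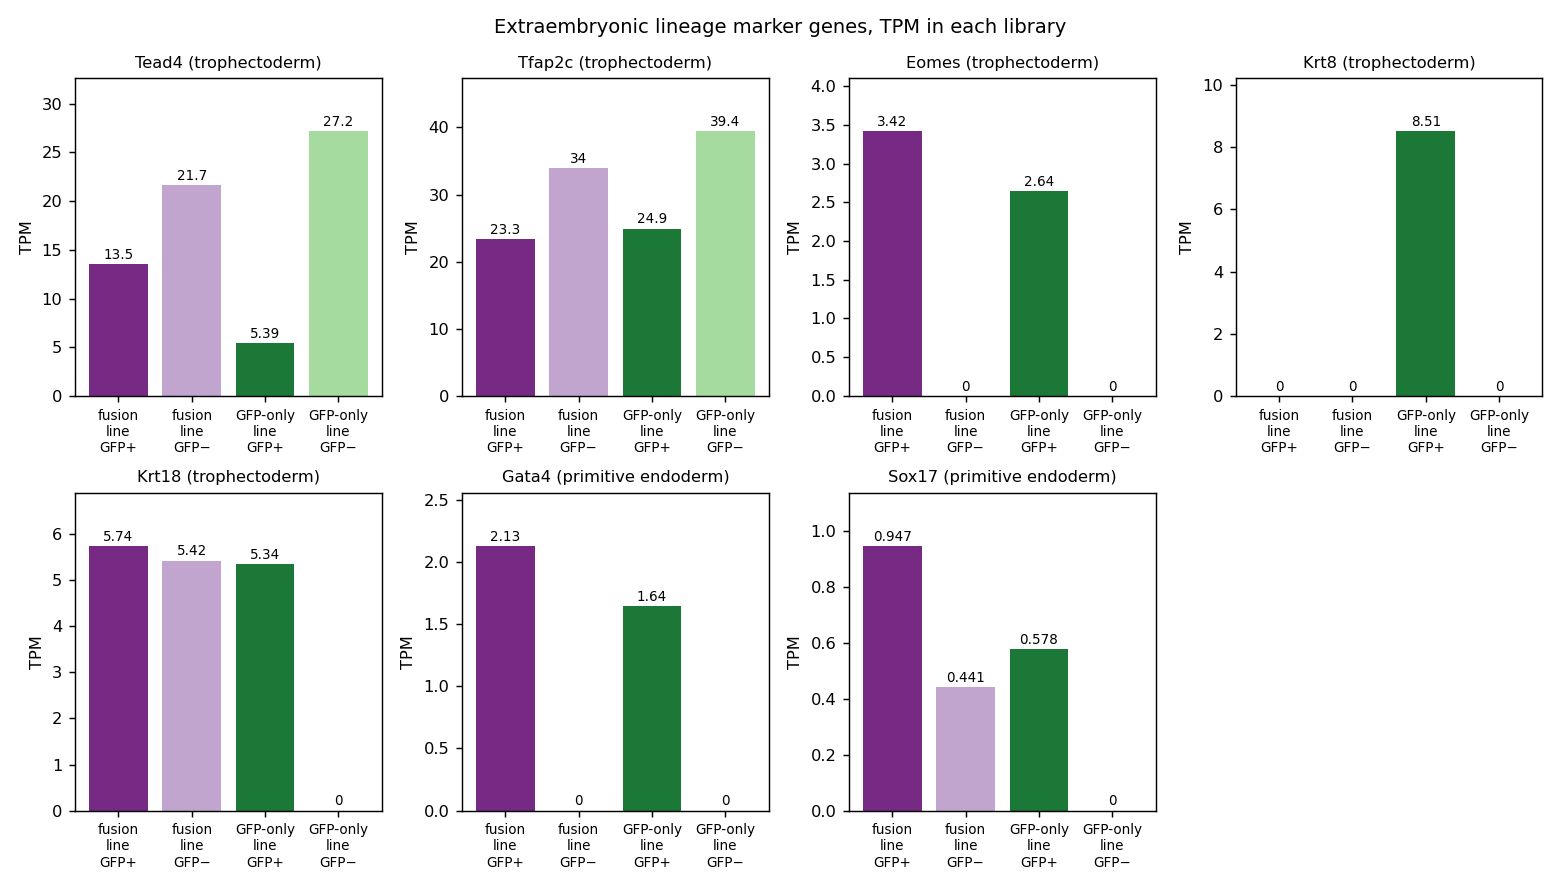
TPM (vertical axis, a separate scale for each gene, from 0) of the 7 lineage marker genes in the 4 libraries; a bar is 1 library. Tead4 and Tfap2c are lower in both GFP-positive libraries, Eomes and Gata4 are above 0 in the GFP-positive libraries alone, and Krt8 is above 0 in GFP-positive cells of the GFP-only line alone.

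Ratios are given on the log2 scale of TPM + 1, which understates the change of low genes, and a gene was counted as 2-fold apart if that ratio was 2 or more in either direction and 5 TPM or more was reached in either library. Since each population is 1 library, these counts have no test and no replicate check. Over all genes, the median log2 ratio of GFP-positive over GFP-negative cells was 0.14 in the fusion line and 0.19 in the GFP-only line. It became -0.05 and -0.13 after quantile normalization and -0.01 and 0.22 after median-ratio scaling, and ratios of individual genes are to be read against these shifts. Of the genes 2-fold apart, 72.4% in the fusion line were higher in GFP-positive cells as deposited, 56.5% after quantile normalization and 63.3% after median-ratio scaling. The same share in the GFP-only line was 81.6% as deposited, 51.4% after quantile normalization and 82.3% after median-ratio scaling.

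Of the 7 lineage genes, 3 reached 5 TPM in the fusion line and 0 of them were 2-fold apart. Of the 10981 genes at that level 11.4% were, with 8.23% higher and 3.14% lower in GFP-positive cells, and of 10775 genes above 0 in both libraries 9.68%. In the GFP-only line 4 reached 5 TPM and 3 were 2-fold apart, against 40.7% of 11062 genes. Krt8 and Krt18 were the 2 higher in GFP-positive cells, where 33.2% of all genes were higher, and Tead4 was the 1 lower, where 7.48% were lower. Both keratins were at 0 in the GFP-negative cells of that line. Set against the GFP-negative library of the fusion line instead, 2 of the lineage genes were 2-fold apart from the GFP-positive cells of the GFP-only line, Tead4 and Krt8, beside 11% of 10824 genes. Among genes above 0 in both libraries compared, a restriction chosen after seeing the data, Tead4 alone remained 2-fold apart in the GFP-only line, against 26.3% of 8904 genes.

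Tead4 (ENSMUSG00000030353, chr6:128224288-128300823, minus strand, GRCm38) encodes the TEA-domain factor that recruits YAP and TAZ to DNA. It was at 13.5 TPM in GFP-positive and 21.7 TPM in GFP-negative cells of the fusion line, and at 5.39 TPM in GFP-positive and 27.2 TPM in GFP-negative cells of the GFP-only line. Both GFP-positive values lay under both GFP-negative values, as they did for Tfap2c and for 13.9% of the 6984 genes at 5 TPM or more in both GFP-negative libraries. On the TPM scale the level was 1.60-fold lower in the GFP-positive cells of the fusion line and 5.04-fold lower in those of the GFP-only line. The log2 ratios of TPM + 1 were -0.64 and -2.14, and the ratio of the GFP-only line was -1.83 against the other GFP-negative library. The size of the difference between sorted populations was thus unlike in the 2 lines, and a test of that unlikeness could not be made with 1 library per population.

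The annotation (GENCODE M21) describes 5 Tead4 transcripts, and all 5 were listed. The long ones differ in a cassette exon of 129 bases at chr6:128247960-128248088, which adds 43 codons in frame. It is shown because the libraries differed in the share of TPM assigned to transcripts that hold it. The exon is written 5′ to 3′ on the minus strand, all in lower case.
Tead4-201 cassette exon: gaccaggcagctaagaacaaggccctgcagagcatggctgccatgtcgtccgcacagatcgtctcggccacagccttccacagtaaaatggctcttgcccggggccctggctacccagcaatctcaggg
Tead4-201 holds this exon, and Tead4-202 and Tead4-203, which also encode a nearly full-length protein, lack it. Tead4-201 was at 4.98 TPM in GFP-positive and 1.61 TPM in GFP-negative cells of the fusion line, and at 3.50 TPM in GFP-positive and 27.2 TPM in GFP-negative cells of the GFP-only line. The 2 transcripts without the exon summed to 1.84 TPM in GFP-positive and 14.2 TPM in GFP-negative cells of the fusion line, and to 1.79 TPM in GFP-positive and 0 TPM in GFP-negative cells of the GFP-only line. The exon was thus in 73.1% and 10.2% of the long coding Tead4 TPM of GFP-positive and GFP-negative cells of the fusion line, and in 66.1% and 100% of that of the GFP-only line. The GFP-positive libraries were alike in this share, and the GFP-negative libraries lay at opposite ends. The share of 100% rests on values of 0 for Tead4-202 and Tead4-203 in the library that lists many genes at 0.

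The 2 remaining transcripts, Tead4-204 and Tead4-205, are short models of the 5′ end with 164 and 114 coding bases. They made up 49.6% of Tead4 TPM in GFP-positive and 27.1% in GFP-negative cells of the fusion line, but 1.85% in GFP-positive and 0% in GFP-negative cells of the GFP-only line. The long coding transcripts alone, a choice made after seeing the data, summed to 6.82 TPM in GFP-positive and 15.8 TPM in GFP-negative cells of the fusion line, and to 5.29 TPM in GFP-positive and 27.2 TPM in GFP-negative cells of the GFP-only line. On that measure the log2 ratio of TPM + 1 was -1.10 in the fusion line and -2.16 in the GFP-only line, so Tead4 was 2-fold or more lower in the GFP-positive cells of both lines. Over all genes measured by their long coding transcripts, 3.23% were 2-fold or more lower in the fusion line, 3.52% in the GFP-only line, and 0.348% of 7749 in both lines. TPM of transcripts that share most of their exons are estimates of how the program divided the shared reads. Of 4261 genes with 2 or more listed transcripts and 5 TPM or more in every library, 51% did not have the same most abundant transcript in all 4 libraries, and 12.6% had 3 or more different ones. Tead4 and Tfap2c each had 3 different ones.

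Tfap2c (ENSMUSG00000028640, chr2:172549593-172558622, plus strand) encodes AP-2γ, a factor of trophoblast stem cells that is also found in naive ESCs and primordial germ cells. It was at 23.3 TPM in GFP-positive and 34.0 TPM in GFP-negative cells of the fusion line, and at 24.9 TPM in GFP-positive and 39.4 TPM in GFP-negative cells of the GFP-only line. On the TPM scale this was 1.46-fold lower in GFP-positive cells of the fusion line and 1.58-fold lower in those of the GFP-only line, with log2 ratios of TPM + 1 of -0.52 and -0.64. Against the other GFP-negative library the ratio of the GFP-only line was -0.43. Tfap2c thus held nearly the same ratio in both lines, under the 2-fold limit. A lower value in the GFP-positive library of both lines was found for 24% of the 6984 genes at 5 TPM or more in both GFP-negative libraries.

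Tfap2c begins at alternative first exons, and 5 of its 6 annotated transcripts were listed. The first coding segments of Tfap2c-201 (chr2:172549835-172549882) and Tfap2c-202 (chr2:172550982-172551221) are printed because they encode different N-termini; capitals mark the 165 bases that Tfap2c-206 also uses as its first coding segment.
Tfap2c-201: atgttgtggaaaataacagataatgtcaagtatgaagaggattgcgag
Tfap2c-202: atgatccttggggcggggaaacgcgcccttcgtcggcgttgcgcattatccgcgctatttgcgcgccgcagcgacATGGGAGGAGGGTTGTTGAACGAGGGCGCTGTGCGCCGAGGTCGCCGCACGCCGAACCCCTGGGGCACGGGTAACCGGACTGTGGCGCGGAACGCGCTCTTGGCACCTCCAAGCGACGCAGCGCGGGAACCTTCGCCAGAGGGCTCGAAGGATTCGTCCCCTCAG
Tfap2c-201, from the upstream first exon, was at 10.1 TPM in GFP-positive and 19.7 TPM in GFP-negative cells of the fusion line, and at 14.1 TPM in GFP-positive and 16.9 TPM in GFP-negative cells of the GFP-only line. Tfap2c-202 and Tfap2c-206, from the downstream first exon, summed to 11.9 TPM in GFP-positive and 14.0 TPM in GFP-negative cells of the fusion line, and to 10.6 TPM in GFP-positive and 22.5 TPM in GFP-negative cells of the GFP-only line. The transcripts of each first exon were thus lower in the GFP-positive cells of both lines. Nearly all of the downstream sum was assigned to Tfap2c-202 in GFP-positive cells of the fusion line, at 11.7 TPM. In the other 3 libraries it was assigned to Tfap2c-206, at 13.6 TPM in GFP-negative cells of the fusion line and 10.5 and 22.1 TPM in GFP-positive and GFP-negative cells of the GFP-only line. Tfap2c-202 and Tfap2c-206 overlap over nearly their whole length.

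**Figure D3:**
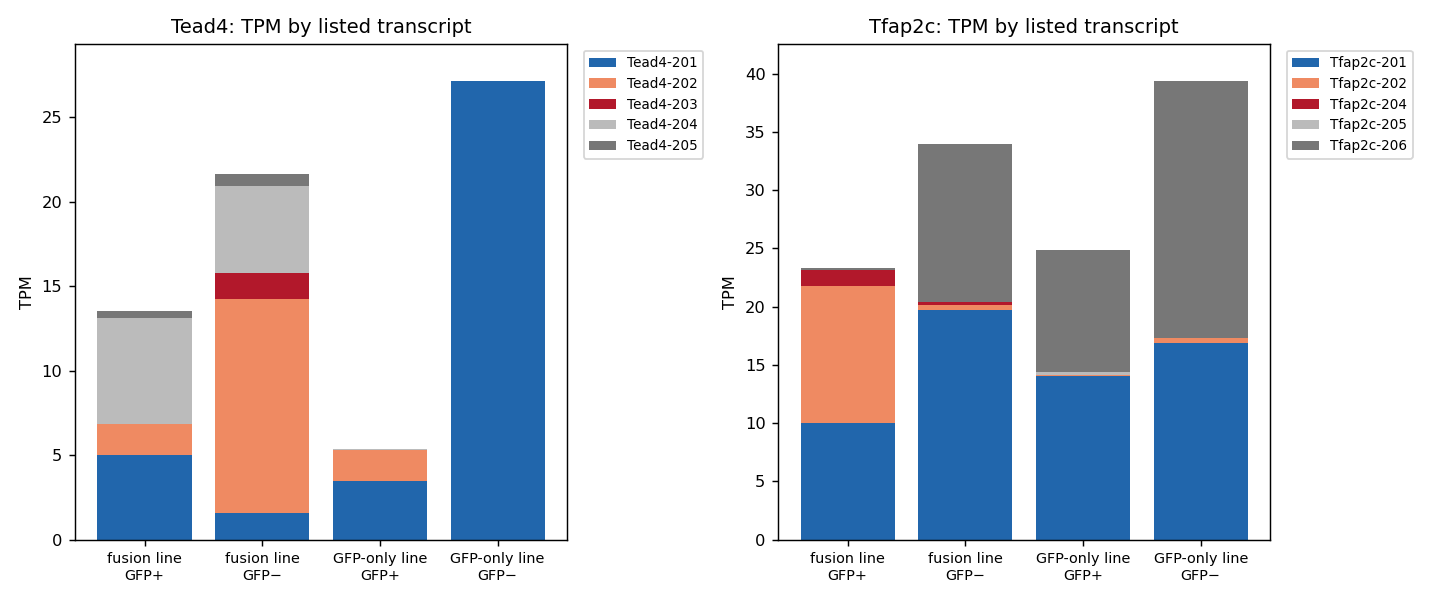
TPM (vertical axis) of the listed transcripts of Tead4 (left) and Tfap2c (right), stacked for each of the 4 libraries. The gene totals are lower in GFP-positive than in GFP-negative cells of each line, while the most abundant transcript takes 3 different identities over the 4 libraries for either gene.

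Eomes (ENSMUSG00000032446, chr9:118478212-118486132, plus strand) encodes a T-box factor needed in trophoblast stem cells and, later, in mesendoderm. It was at 3.42 TPM in GFP-positive and 0 TPM in GFP-negative cells of the fusion line, and at 2.64 TPM in GFP-positive and 0 TPM in GFP-negative cells of the GFP-only line. The log2 ratios of TPM + 1 were 2.14 and 1.86, past 2-fold in both lines, but Eomes stayed under the minimum of 5 TPM. Of the 2406 genes at 1 to 5 TPM in both GFP-positive libraries, 8.4% were likewise listed at 0 in both GFP-negative libraries. Among all 13263 genes at 1 TPM or more in both GFP-positive libraries the share was 2.8%, and the opposite arrangement was found for 0.0212% of 9452 genes at 1 TPM or more in both GFP-negative libraries.

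All 3 annotated Eomes transcripts were listed. The longest, Eomes-201, carried 3.13 TPM in GFP-positive cells of the fusion line and 2.15 TPM in those of the GFP-only line. Eomes-202 differs from it at the start of the last coding exon (chr9:118484274-118484357), shown with capitals for the 57 bases that Eomes-202 lacks.
Eomes-201: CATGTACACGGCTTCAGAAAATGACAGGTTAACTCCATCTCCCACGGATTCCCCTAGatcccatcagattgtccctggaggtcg
Eomes-202 was at 0 TPM in GFP-positive cells of the fusion line and 0.0528 TPM in those of the GFP-only line, so the form with these bases was the main one in both. The gene span of Gm33460, annotated on the opposite strand, covers 574 exonic bases of Eomes, and the longest transcript stretch that matched was 119 bases. Gm33460 was not analysed here. The library kit is not stated to keep the strand, so reads of shared bases cannot be told apart.

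Krt18 (ENSMUSG00000023043, chr15:102028180-102032027, plus strand) and Krt8 (ENSMUSG00000049382, chr15:101996698-102004482, minus strand) are neighbours on chromosome 15 and encode the type I and type II keratins of simple epithelia. Krt18 was at 5.74 TPM in GFP-positive and 5.42 TPM in GFP-negative cells of the fusion line, and at 5.34 TPM in GFP-positive and 0 TPM in GFP-negative cells of the GFP-only line. Krt18 was thus level in 3 libraries and listed at 0 in the library that lists many genes of this level at 0. Its log2 ratio was 0.07 in the fusion line, with -0.23 after quantile normalization and -0.07 after median-ratio scaling. The ratio in the GFP-only line was 2.67, and against the GFP-negative library of the fusion line it was -0.02. The call of Krt18 as 2-fold higher therefore rested on 1 library.

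Krt8 was at 0 TPM in GFP-positive and 0 TPM in GFP-negative cells of the fusion line, and at 8.51 TPM in GFP-positive and 0 TPM in GFP-negative cells of the GFP-only line. It was thus above 0 in 1 library of 4. The log2 ratio was 3.25 in the GFP-only line, also against the other GFP-negative library, and the ratio of 0 in the fusion line compares 2 libraries at 0 TPM and says nothing of a difference. A processed pseudogene, Krt8-ps, is 98.6% identical to Krt8 over 941 bases, so reads of the pair could be divided either way. Krt8-ps was at 0.639 TPM in GFP-positive and 0.523 TPM in GFP-negative cells of the fusion line, and at 1.90 TPM in GFP-positive and 1.15 TPM in GFP-negative cells of the GFP-only line. Krt8 and Krt8-ps together came to 10.4 TPM in the library of GFP-positive, GFP-only cells and 0.523 to 1.15 TPM in the other libraries. The gene span of Gm36026, on the opposite strand, covers 271 exonic bases of Krt8, and the longest transcript stretch that matched was 102 bases. The processed pseudogene Gm5200 is 90.2% identical to Krt18 over 1269 bases. Neither Gm36026 nor Gm5200 was analysed here. The heterotypic partners of the keratin filament therefore did not share a pattern: Krt18 was near 5 TPM in 2 libraries in which Krt8 was listed at 0.

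Gata4 (ENSMUSG00000021944, chr14:63198922-63271692, minus strand) encodes a zinc-finger factor of the primitive endoderm and its derivatives. It was at 2.13 TPM in GFP-positive and 0 TPM in GFP-negative cells of the fusion line, and at 1.64 TPM in GFP-positive and 0 TPM in GFP-negative cells of the GFP-only line. This is the arrangement seen for Eomes, at a lower level, with log2 ratios of TPM + 1 of 1.65 and 1.40. Gata4 was listed with 3 of its 6 annotated transcripts, and most of its TPM were assigned to Gata4-202, at 2.13 TPM in GFP-positive cells of the fusion line and 1.43 TPM in those of the GFP-only line. Gata4-202 and Gata4-201 differ in their coding sequence by 3 bases at the start of an exon (chr14:63204729-63204758, minus strand), which are in capitals here and absent from Gata4-202.
Gata4-201: TAGatatgtttgatgacttctcagaaggca
Gata4-201 was at 0 TPM in GFP-positive cells of the fusion line and 0.0647 TPM in those of the GFP-only line. Gata4-202, without these bases, thus held 100% of Gata4 TPM in GFP-positive cells of the fusion line and 87.1% in those of the GFP-only line. The short model Gata4-206, with 34 coding bases, held a further 8.96% in GFP-positive cells of the GFP-only line. These shares too are estimates of how shared reads were divided.

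Sox17 (ENSMUSG00000025902, chr1:4490931-4497354, minus strand) encodes an HMG-box factor of primitive and definitive endoderm. It was at 0.947 TPM in GFP-positive and 0.441 TPM in GFP-negative cells of the fusion line, and at 0.578 TPM in GFP-positive and 0 TPM in GFP-negative cells of the GFP-only line. Its log2 ratios of TPM + 1 were 0.43 and 0.66. The ratio of 0.66 rests on the 0 TPM of the GFP-negative library of the GFP-only line, where the other GFP-negative library had 0.441 TPM. All 4 values were under 1 TPM, and only 2 of the 8 annotated transcripts were listed. Sox17-205, a retained intron, carried all of the TPM in GFP-negative cells of the fusion line. The coding model, Sox17-204, was at 0.420 TPM in GFP-positive cells of the fusion line and 0.354 TPM in those of the GFP-only line, and was at 0 in each GFP-negative library. Gm37587, on the opposite strand with a gene span over 804 exonic bases of Sox17, was at most 0.0188 TPM.

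Set against each other, the lineages differed in the level and direction of their sums, and the trophectoderm held genes of both directions. The 5 trophectoderm genes summed to 46.0 TPM in GFP-positive and 61.1 TPM in GFP-negative cells of the fusion line, and to 46.8 TPM in GFP-positive and 66.6 TPM in GFP-negative cells of the GFP-only line. The ratio of GFP-positive over GFP-negative cells was 0.754 in the fusion line and 0.703 in the GFP-only line. Tfap2c alone gave 50.7% to 59.2% of the trophectoderm sum in each library. The 2 primitive endoderm genes summed to 3.07 TPM in GFP-positive and 0.441 TPM in GFP-negative cells of the fusion line, and to 2.22 TPM in GFP-positive and 0 TPM in GFP-negative cells of the GFP-only line. The trophectoderm sum was thus lower and the primitive endoderm sum higher in the GFP-positive cells of both lines. The trophectoderm direction was the same after quantile normalization and median-ratio scaling, as was the primitive endoderm direction in the fusion line. In the GFP-only line the GFP-negative primitive endoderm sum was 0 TPM under each scaling, so that direction could not change. Against the other GFP-negative library the log2 ratio of this sum, with 1 TPM added, was 1.16 in place of 1.69. Neither primitive endoderm gene reached 5 TPM in any library. The trophectoderm sum was carried by Tfap2c and Tead4. Gene by gene, with no minimum level, 2 of the 5 trophectoderm genes were higher and 2 lower in GFP-positive cells of the fusion line. The median log2 ratio of 0 is that of Krt8, at 0 TPM in both libraries, and shows no balance. In the GFP-only line 3 were higher and 2 lower, with a median of 1.86, that of Eomes. The 2 primitive endoderm genes were higher in both lines, with medians of 1.04 in the fusion line and 1.03 in the GFP-only line. Every gene higher in the GFP-only line was at 0 in its GFP-negative library, which lists 50.1% of genes averaging 1 to 5 TPM elsewhere at 0. Shares of all genes by direction were not counted without a minimum, so these counts are not read as a result about the lineages.

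**Figure D4:**
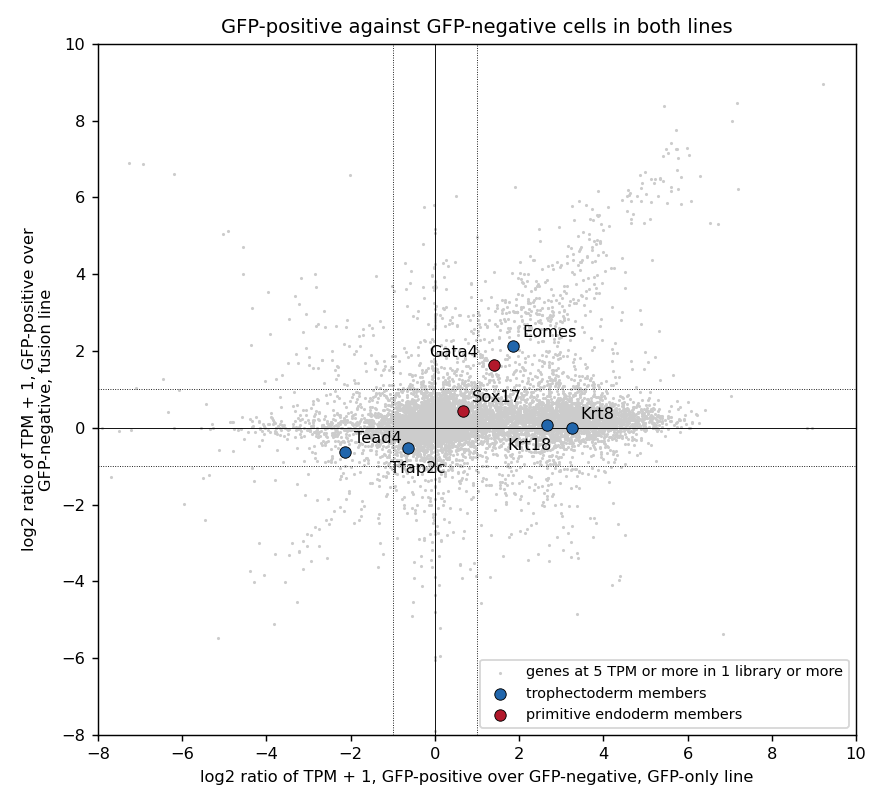
Log2 ratio of TPM + 1, GFP-positive over GFP-negative cells, in the fusion line (vertical axis) and in the GFP-only line (horizontal axis). Grey points are the 11798 genes that reached 5 TPM in 1 or more libraries, coloured points are the 7 lineage genes, and dotted lines mark 2-fold. Eomes and Gata4 lie past 2-fold on both axes, Tead4 and Tfap2c lie below 0 on both, and Krt18 lies near 0 on the vertical axis alone, as does Krt8, which was at 0 TPM in both libraries of the fusion line.

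Over both lines together, a linear model with GFP status and line as terms was fitted to log2(TPM + 1) of the 14379 genes that reached 1 TPM in 2 or more libraries. Its log2 estimates from limma were -1.39 ± 0.60 (SE) for Tead4 and -0.58 ± 0.25 for Tfap2c, with Benjamini-Hochberg adjusted p of 0.683 for each. For Krt18 the limma estimate was 1.37 ± 1.01, also with an adjusted p of 0.683. In a fit without the line term the Krt18 estimate was 1.37 over all 4 libraries and 0.03 without the GFP-negative library of the GFP-only line. Eomes and Gata4 entered the fit only through the GFP-positive libraries, where they are higher, so their estimates are not given, and Krt8 and Sox17 did not enter it. By limma, 0% of the 14379 genes passed an adjusted p of 0.05 in either direction, and 972 had an unadjusted p under 0.05, 848 (5.9%) higher and 124 (0.862%) lower in GFP-positive cells. The model has 1 residual degree of freedom, and nothing in the labels says that the lines were grown and sorted independently, so its p-values speak only of the spread among the 4 libraries, which may be technical. With 3 libraries the line term cannot be kept. Fitted without it, limma called 0 genes over all 4 libraries and 4204 without the GFP-negative library of the fusion line, which leaves the library with many zeros as the only GFP-negative one.

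The GFP-positive populations differ in whether the promoter drives the fusion or GFP and also in clone, and these cannot be told apart here. Between them 4 of the lineage genes reached 5 TPM and 2 were 2-fold apart, against 9.76% of 11126 genes. Tead4 was 2-fold higher in the fusion line, with a log2 ratio of 1.19, against 5.71% of genes in that direction, and Krt8 was lower, against 4.05%. Among genes above 0 in both libraries 8.95% of 11027 were 2-fold apart, and Tead4 was the 1 lineage gene. The long coding transcripts of Tead4 differed by 0.31, so the short 5′ models made up most of the Tead4 difference. Tfap2c and Krt18 had log2 ratios of -0.09 and 0.09, and that of Krt18 became -0.01 after quantile normalization. Eomes, Gata4 and Sox17 had ratios of 0.28, 0.24 and 0.30, all under 5 TPM. The lineage genes other than Tead4 and Krt8 thus stayed under 2-fold between the GFP-positive populations on this scale, as did most of all genes. For the low genes the added 1 TPM shrinks the ratio. Sox17 was at 0.947 TPM in the fusion line and 0.578 TPM in the GFP-only line.

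Between the GFP-negative populations 3 lineage genes reached 5 TPM, and Krt18 alone was 2-fold apart, with a log2 ratio of 2.68 for the fusion line over the GFP-only line, against 38.6% of 10672 genes 2-fold apart, 30.1% higher and 8.49% lower. Tead4 had a ratio of -0.31 and Tfap2c one of -0.21. These comparisons share libraries with those between sorted populations and are no independent evidence of them.

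The paralogs of the lineage genes showed several patterns. Tead1 and Tead2, the most abundant TEAD genes, were at 35.1 and 83.2 TPM in GFP-positive and 41.3 and 83.8 TPM in GFP-negative cells of the fusion line. Cells of the GFP-only line had 55.2 and 86.6 TPM when GFP-positive and 44.0 and 113 TPM when GFP-negative, with 0 of these differences reaching 2-fold. Tead3 stayed under 3 TPM in every library. Of the 3 TEAD genes at 5 TPM, Tead4 alone was thus 2-fold apart in the GFP-only line. Tfap2a, the other AP-2 gene with a row, was at 3.55 TPM in GFP-positive and 2.77 TPM in GFP-negative cells of the fusion line, and at 3.67 TPM in GFP-positive and 0 TPM in GFP-negative cells of the GFP-only line. Cdx1, the caudal gene with a row, was at 6.999 TPM in GFP-positive and 7.197 TPM in GFP-negative cells of the fusion line, and at 17.5 TPM in GFP-positive and 0 TPM in GFP-negative cells of the GFP-only line. Both were at 0, as Krt18 was, in GFP-negative cells of the GFP-only line and in no other library.

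Among the T-box relatives of Eomes, Tbx3, a factor that has roles in pluripotency and in primitive endoderm, was at 102 TPM in GFP-positive and 32.0 TPM in GFP-negative cells of the fusion line. In the GFP-only line Tbx3 was at 101 TPM in GFP-positive and 29.1 TPM in GFP-negative cells. Its log2 ratios of 1.65 and 1.76 were past 2-fold in both lines and rest on no value at 0. Of all genes, 8.23% were 2-fold higher in the fusion line and 33.2% in the GFP-only line, and the share in both was not counted. Tbx2 was at 1.73 and 1.16 TPM in the GFP-positive cells of the fusion and GFP-only lines and at 0 in each GFP-negative library, as Eomes was. Tbx1 and Tbx4 did not share this arrangement. Tbx1 was above 0 in GFP-positive cells of the GFP-only line alone, at 1.85 TPM. Tbx4 was above 0 in GFP-positive cells of the fusion line alone, at 1.25 TPM. Gata2, a trophoblast factor, was at 1.03 TPM in GFP-positive and 0.379 TPM in GFP-negative cells of the fusion line, and at 2.17 TPM in GFP-positive and 0.314 TPM in GFP-negative cells of the GFP-only line. Krt19, a further keratin of simple epithelia, reached 3.63 TPM at most, and Krt7 0.0240 TPM. Of the SOXF relatives of Sox17, Sox18 was between 1.04 and 1.80 TPM in 3 libraries and listed at 0 in GFP-negative cells of the GFP-only line, and Sox7 was at most 0.0682 TPM.

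A wider list of 24 trophectoderm and trophoblast genes had 20 with a row. In the fusion line 10 reached 5 TPM and 0 were 2-fold apart, beside 11.4% of all genes, with a median log2 ratio of 0.04 beside 0.14 over all genes. Of 11 at 5 TPM in the GFP-only line, 2 were 2-fold higher and 1 was lower in GFP-positive cells, beside 33.2% and 7.48% of all genes, with a median of -0.33 beside 0.19 over all genes. The 2 higher were Cdh3, which encodes P-cadherin, at 9.18 TPM in GFP-positive and 0 TPM in GFP-negative cells, and Dsp, which encodes the desmosome protein desmoplakin, at 24.8 and 7.06 TPM. The lower was Bmp4, a signalling ligand, at 0.620 TPM in GFP-positive and 5.15 TPM in GFP-negative cells. In the fusion line Cdh3 was at 9.51 and 7.40 TPM, Dsp at 22.3 and 21.5 TPM and Bmp4 at 0 and 0.572 TPM in GFP-positive and GFP-negative cells. No trophoblast gene of the list was thus 2-fold apart in both lines, as 0 were in the fusion line. How many of all genes were higher in both lines was not counted, so this is not read as a result about the list.

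A wider list of 23 primitive endoderm genes and genes of its derivatives had 14 with a row, and 7 reached 5 TPM in each line. In the fusion line 0 were higher and 2 were lower in GFP-positive cells, beside 8.23% and 3.14% of all genes, with a median log2 ratio of 0.24. The GFP-only line had 4 higher and 1 lower, beside 33.2% and 7.48% of all genes, with a median of 1.23, and of the 4 higher only Lamb1 was above 0 in both libraries. Apart from Hhex, a homeobox factor of endoderm, the genes concerned encode proteins of the basement membrane, which parietal endoderm secretes and ESCs also make. Lama1 and Col4a2 were at 17.9 and 31.9 TPM in GFP-positive and 15.7 and 26.8 TPM in GFP-negative cells of the fusion line, and at 27.0 and 25.4 TPM in GFP-positive and 0 TPM each in GFP-negative cells of the GFP-only line. Lamc1 was 2-fold lower in both lines, at 15.0 TPM in GFP-positive and 156 TPM in GFP-negative cells of the fusion line, and at 30.1 TPM in GFP-positive and 71.8 TPM in GFP-negative cells of the GFP-only line. By the same measure 0.654% of 10245 genes were 2-fold lower in both lines. Lamb1, Hhex and Sparc are named because they complete these counts, after their values were seen. Their log2 ratios were 0.88, 0.25 and -2.16 in the fusion line and 1.24, 3.03 and -0.25 in the GFP-only line.

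Of 18 genes of the Hippo pathway, which controls the TEAD coactivators, 17 had a row and 14 reached 5 TPM in each line. In the fusion line 0 were 2-fold apart, beside 11.4% of all genes, with a median log2 ratio of 0.02. In the GFP-only line 7 were higher and 0 lower in GFP-positive cells, beside 33.2% and 7.48% of all genes, with a median of 0.94, and 4 of the 7 were above 0 in both libraries. Mob1a, the coactivator of the LATS kinases, was at 25.3 TPM in GFP-positive and 21.4 TPM in GFP-negative cells of the fusion line, and at 24.1 TPM in GFP-positive and 0 TPM in GFP-negative cells of the GFP-only line. Cyr61, a target of YAP and TEAD, was at 17.5 TPM in GFP-positive and 11.02 TPM in GFP-negative cells of the fusion line, and at 14.1 TPM in GFP-positive and 0 TPM in GFP-negative cells of the GFP-only line. Vgll4, which competes with YAP for TEAD proteins, was at 6.63 and 6.62 TPM in GFP-positive and GFP-negative cells of the fusion line, and at 7.97 and 0 TPM in those of the GFP-only line. Each was thus above 5 TPM in 3 libraries and at 0 in GFP-negative cells of the GFP-only line.

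Of 20 genes of FGF and ERK signalling, 19 had a row and 15 reached 5 TPM in each line. In the fusion line 1 was 2-fold higher and 0 were lower in GFP-positive cells, beside 8.23% and 3.14% of all genes, with a median log2 ratio of 0.13. In the GFP-only line 5 were higher and 0 lower, a share of higher genes near the 33.2% of all genes, with a median of -0.06, and 2 of the 5 were above 0 in both libraries. Frs2, the adaptor that couples FGF receptors to the Ras pathway, was higher in both lines, for which no share of all genes was counted. It was at 9.36 TPM in GFP-positive and 0 TPM in GFP-negative cells of the fusion line. In the GFP-only line it was at 12.7 TPM in GFP-positive and 0 TPM in GFP-negative cells. Spred1, an inhibitor of the pathway, was at 7.27 and 6.58 TPM in GFP-positive and GFP-negative cells of the fusion line, and at 7.79 and 0 TPM in those of the GFP-only line. The Ras exchange factor Sos1 was at 6.33 and 5.65 TPM in GFP-positive and GFP-negative cells of the fusion line and at 7.70 and 0 TPM in those of the GFP-only line. The other 2, the receptor Fgfr1 and the phosphatase Ptpn11, were named after their values were seen and had log2 ratios of 0.03 and 0.02 in the fusion line and 1.18 and 2.13 in the GFP-only line.

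**Figure D5:**
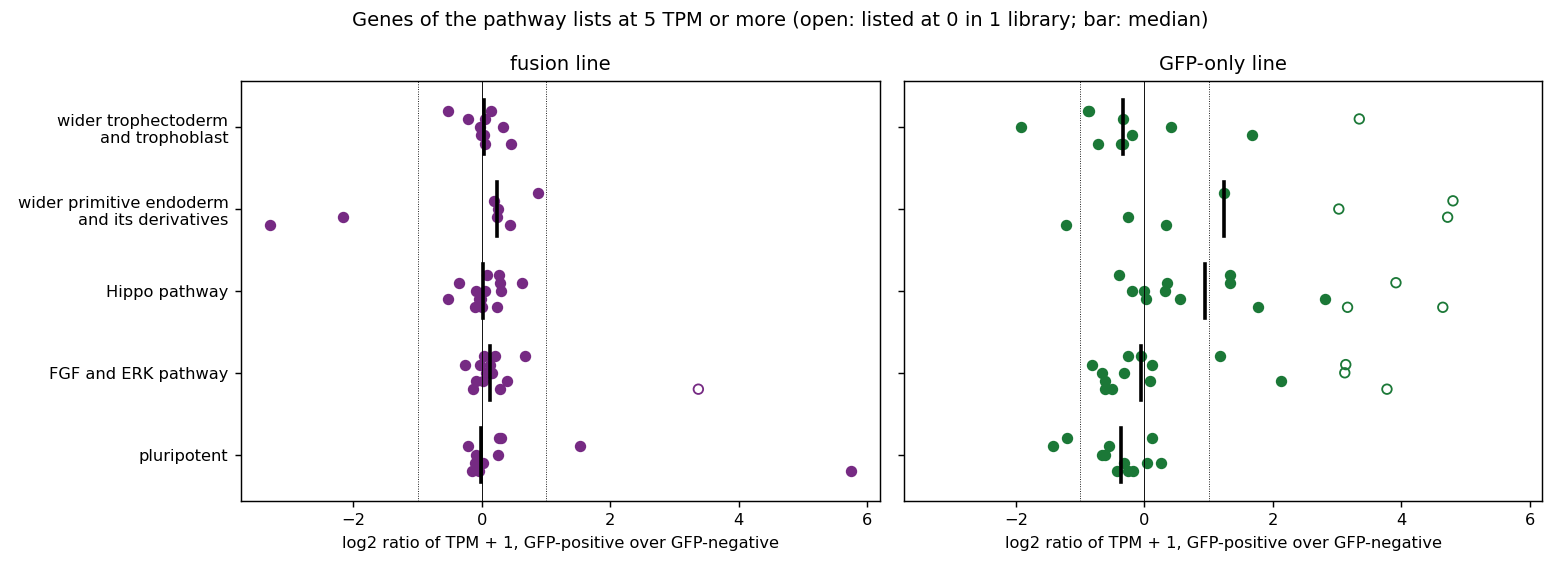
Log2 ratio of TPM + 1, GFP-positive over GFP-negative cells (horizontal axis), for the genes of 5 lists at 5 TPM or more, in the fusion line (left) and the GFP-only line (right). Open points are genes listed at 0 in 1 of the libraries, black bars are medians, and all open points of the GFP-only line except Frs2 lie within 2-fold in the fusion line.

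Markers of other cell types were counted beside these genes. Of 10 genes of mesoderm and definitive endoderm, in which Eomes, Gata4 and Sox17 also have roles, 5 had a row and summed to 15.2 TPM in GFP-positive and 14.7 TPM in GFP-negative cells of the fusion line, and to 11.4 TPM in GFP-positive and 0 TPM in GFP-negative cells of the GFP-only line. Nearly all of it was Gsc, at 14.7 and 14.4 TPM in GFP-positive and GFP-negative cells of the fusion line and 9.93 and 0 TPM in those of the GFP-only line. Eomes and Gata4 were listed at 0 in GFP-negative cells of the fusion line. Of 6 fibroblast genes 3 had a row and summed to 7.42 TPM in GFP-positive and 0.114 TPM in GFP-negative cells of the fusion line, and to 11.9 TPM in GFP-positive and 0 TPM in GFP-negative cells of the GFP-only line. This sum was Thy1, a surface protein that is not particular to fibroblasts, at 7.27 and 11.9 TPM in the GFP-positive cells of the fusion and GFP-only lines and 0 TPM in both GFP-negative libraries, as Eomes and Gata4 were. Of 6 neural genes 4 had a row and summed to 41.2 TPM in GFP-positive and 46.5 TPM in GFP-negative cells of the fusion line, and to 72.6 TPM in GFP-positive and 78.7 TPM in GFP-negative cells of the GFP-only line. The part of these cell types, and of the zeros of 1 library, in the levels of Eomes and Gata4 was not tested.

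Genes with the most similar pattern over the 4 libraries were found by the Euclidean distance between centred log2(TPM + 1) profiles, among 11794 genes, for each lineage gene at 5 TPM or more. Nearest to Tfap2c were Aire and Slc2a3, at distances of 0.10 each. Slc2a3 was at 468 TPM in GFP-positive and 674 TPM in GFP-negative cells of the fusion line, and at 487 TPM in GFP-positive and 835 TPM in GFP-negative cells of the GFP-only line. Tead4 had no gene as close: Gm26448 and Helq were nearest, at 0.42 and 0.43. Nearest to Krt18 were Stx1a and Chd2, at 0.04 and 0.06, and Slc30a6 and Gm20388 were nearest to Krt8, at 0.06 and 0.08. Slc30a6, like Krt8, was above 0 in GFP-positive cells of the GFP-only line alone, at 8.07 TPM.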

How the data were processed

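Per the labels' protocols, poly-A RNA was purified on oligo-dT beads and reverse transcribed from random hexamers. The tables that the authors deposited give TPM for 58853 transcripts in each of 4 libraries. Tools named in the submitters' processing notes are CASAVA, HISAT2 (version 2.1.0) and StringTie (version 1.3.5), with the build GRCm38 (mm10). The settings, the gene annotation and the selection of the listed transcripts were not given in the sources used here. Listed TPM summed to 66.6% to 69.1% of a full TPM scale.

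TPM were summed per symbol, and log2 ratios used a pseudocount of 1 TPM. The linear model was fitted with limma 3.58.1 in R 4.3.3 (lmFit, then eBayes with trend and robust set). Its p-values are two-sided and adjusted by Benjamini-Hochberg over all 14379 genes. The fit was also run on simulated data, and that outcome is not reported here. Coordinates, exons and sequences came from GENCODE M21 on GRCm38, with similar genes found by blastn 2.17.0 at 90% identity over 100 bases or more.

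The members and lists were chosen with earlier results of these data known. Named were every member with a row, its family, up to 3 genes of each list with the largest absolute mean of the log2 ratios of both lines at 5 TPM or more, and for each member at 5 TPM or more the 2 genes nearest in pattern. Exceptions are named where they occur. Alternatives varied the pseudocount, the minimum level, the scaling, the transcripts used and the libraries in the fit.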

Additional observations from a re-analysis of the deposited data

Results flagged for a closer look

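For 5 of the genes named by rule the log2 ratio of GFP-positive over GFP-negative cells had opposite signs in the 2 lines, by at least 0.1 each, and these differences were not tested. Dppa5a, a pluripotency marker, had 5.75 in the fusion line and -0.253 in the GFP-only line, with 2280 TPM in GFP-positive and 41.4 TPM in GFP-negative cells of the fusion line. Tdgf1, which encodes the Nodal coreceptor Cripto, had 0.295 and -1.20, and the neural marker Nes had 0.132 and -0.401, in the fusion and GFP-only lines. Of the paralogs of Tead4, Tead1 had -0.231 in the fusion line and 0.321 in the GFP-only line. Tead3 had -0.284 in the fusion line and 1.98 in the GFP-only line, where it was listed at 0 in GFP-negative cells.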

How the results depend on the processing

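With no minimum level, and with a minimum of 1 TPM, the lineage genes 2-fold apart were 2 in place of 0 in the fusion line and 5 in place of 3 in the GFP-only line, since Eomes and Gata4 then entered. Among genes above 0 in both libraries there was 1 in the GFP-only line, and by long coding transcripts 1 (Tead4, log2 ratio -1.10) in the fusion line. After quantile normalization there were 2 in the GFP-only line, since Krt18 fell to 4.24 in its GFP-positive cells, under the minimum of 5 TPM. Between the GFP-positive populations there were 2, and 1 with a pseudocount of 5 TPM, by the most abundant transcript, by long coding transcripts or above 0 in both libraries; Tead4 was then at 0.83, 0.70 and 0.31 in the first 3 of these. Krt18 reversed: -0.0169 in the GFP-only line against the other GFP-negative library, -0.23 (quantile) and -0.0653 (median-ratio) in the fusion line, and -0.0146 (quantile) between the GFP-positive populations. The limma count of 0 became 3 with a pseudocount of 5 TPM and 100 after quantile normalization. Leaving out 1 library, which also drops the line term, gave 0 to 4204 genes, beside 0 without the line term over all 4 libraries. The 4204 came without the GFP-negative library of the fusion line, which leaves the library with many zeros as the only GFP-negative one. Of 70 settings applied to the 11 fold ratios of single genes, 62 kept direction and side of 2-fold, but some of these could not do otherwise. Krt8 and Krt18 have 1 listed transcript each, so the settings that choose transcripts left their ratios as they were. The other line's GFP-negative library likewise left the ratio of Krt8, which was at 0 TPM in both GFP-negative libraries. The directions of both lineage sums held in every setting. For the primitive endoderm sum of the GFP-only line no scaling could change it, since the GFP-negative sum stayed at 0 TPM. The line term pairs the sorted populations. Alternatives with zeros removed, long coding transcripts or the other line's GFP-negative library were added after seeing the data.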
